A study of Rattus norvegicus with 6 samples.

Results

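Contractile and actin cytoskeleton genes were examined in L1-L2 dorsal root ganglion (DRG) neurons of the spontaneously hypertensive rat (SHR) after surgical ablation of perirenal adipose tissue (PRATA) or a sham operation. The 10 genes were chosen by name: the smooth muscle and myofibroblast genes Acta2, Tagln, Myl9, Cnn1 and Tpm2, the broadly expressed cytoskeletal genes Actg1, Tpm1, Actn1 and Myh9, and Actb, the reference gene of the study's CGRP qPCR. All 10 were found among the 25689 genes of the count table, and all 10 were among the 14919 genes with enough reads to be tested. Each group held 3 samples. All rats were labelled SHR, wild type and 6 to 8 weeks old, whereas the methods give 12 weeks at purchase, and tissue was taken 4 weeks after surgery. Neurons of bilateral ganglia were released with collagenase and trypsin and separated from glia by adhesion to the dish, so the RNA came from enriched cells after a short time in culture and not from intact ganglia. Whether a sample was 1 rat or a pool is not stated, so the p-values measure the spread between these samples, which may be in part technical.

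Actin filaments are built from closely related actin proteins: beta- and gamma-actin in nearly every cell, and alpha-actin in smooth muscle, pericytes and myofibroblasts. Tropomyosins lie along the filament, alpha-actinin cross-links filaments and anchors them at adhesions, and myosin II, made of heavy chains and regulatory light chains, pulls on them. Many of these genes are driven by serum response factor (SRF), which binds a short DNA element called the CArG box. In sensory neurons, actin and non-muscle myosin shape the axon and growth cone, while the smooth muscle genes are known for the vessel wall.

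No gene passed an adjusted p of 0.05 between PRATA and sham by edgeR's quasi-likelihood test (smallest adjusted p = 0.156), beside 2734 genes at an unadjusted p under 0.05. Other tools gave other counts on the same samples: 728 genes by DESeq2, 1173 by limma voom with sample quality weights and 0 by limma-trend. Of the 10 contractile genes, Actn1 was lower and Tpm1 higher after PRATA at an unadjusted p under 0.05, against 10.1% of all tested genes lower and 8.19% higher, or 18.3% in all. The same 2 genes were those whose groups did not overlap, against 22.8% of all genes. The share among the 10 genes was therefore close to the background. With an absolute log2 fold change over 1 as well, Actn1 was the 1 gene left, against 3.23% of all genes lower and 1.17% higher. Fitted log2 fold changes (PRATA over sham) were positive for 5 genes and negative for 5, with a median of -0.01 beside 0.02 over all genes tested.

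Sham replicate 2 was the shallowest library with 5892967 counts, and sham replicate 1 the deepest with 15226952. A gene with 3 counts there is at 0.468 and 0.207 CPM, the read count scaled to a common library size with edgeR's TMM factors. PRATA replicate 3 and sham replicate 1 stood apart: 92.0% and 94.1% of their 7SL RNA reads fell on 1 gene copy, Rn7sl1, against 45.3% to 47.4% in the other 4 libraries. The labels name no batch for this. Sham replicate 2 had the largest share of reads on pseudogenes, 0.751% against 0.389% to 0.483% elsewhere. Sensory neuron marker genes summed to 15046 to 22495 CPM after PRATA and 10389 to 15968 CPM after sham. Fold changes were above 0 for 19 of 19 markers, with a median log2 fold change of 0.46 against 0.02 over all genes tested. Of the 19, 4 were higher at an unadjusted p under 0.05 by edgeR, against 8.19% of all tested genes. In bulk RNA, fewer cells of a type and less RNA per cell cannot be told apart. What part these features had in the results that follow was not tested.

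**Figure D1:**
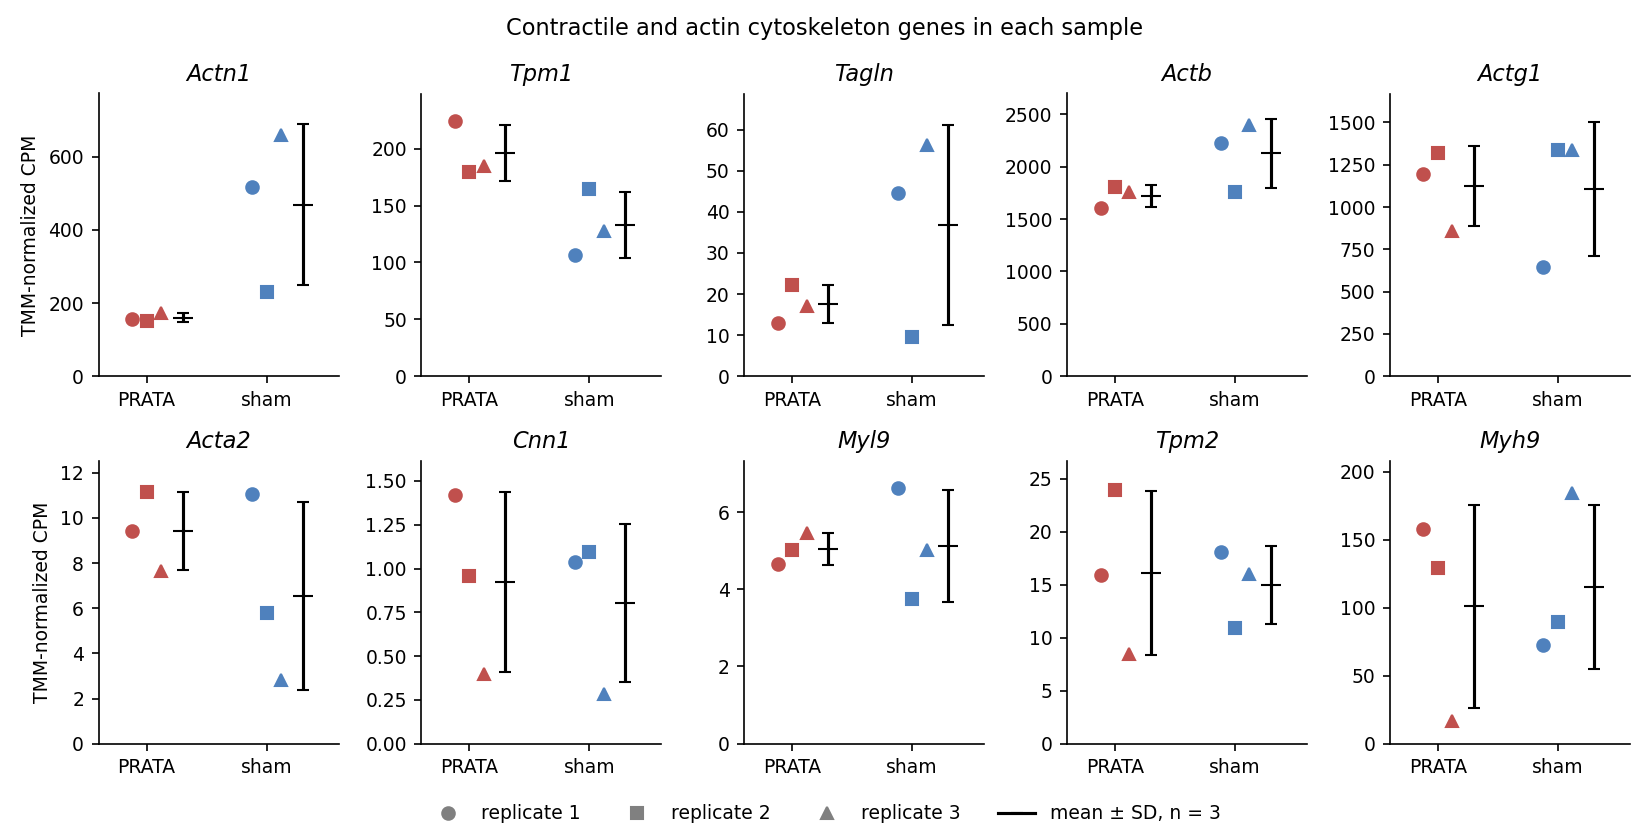
TMM-normalized CPM of the 10 genes in each of the 6 samples, on linear axes that start at 0 and differ between genes. Symbols mark the replicate and bars the mean ± SD of 3 samples. Actn1 lies lower in every PRATA sample (151 to 173 CPM) than in any sham sample (229 to 660 CPM), Tpm1 lies higher, and the other 8 genes overlap.

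CArG boxes were looked for in the 250 bases before the annotated start of each gene, because SRF is known to drive this gene class. The sequences are RefSeq's for build GRCr8, 7 of the 10 genes had 1 or more windows there (not Actb, Tagln or Myl9), and both strands were covered. A CArG box, or a CArG-like box with 1 G or C in its A/T tract, stood in the windows of 2 of these 7 genes, Acta2 and Actg1. Across all 33469 rat promoter windows of that length, 8.08% held either kind, 1.5% held an exact CArG box and 0.693% held 2 or more of either kind. Acta2 (chr1:241172504-241172753, minus strand) carried a pair of CArG-like boxes, whose first bases lay 134 and 84 bases before the start. Actg1 (chr10:106120952-106121201, minus strand) carried an exact CArG box 90 bases before the start. Actn1 (chr6:104826173-104826422, minus strand) is shown beside them because its fold change was the largest of the 10, and it had no match in this window. Capitals mark the boxes.
Acta2: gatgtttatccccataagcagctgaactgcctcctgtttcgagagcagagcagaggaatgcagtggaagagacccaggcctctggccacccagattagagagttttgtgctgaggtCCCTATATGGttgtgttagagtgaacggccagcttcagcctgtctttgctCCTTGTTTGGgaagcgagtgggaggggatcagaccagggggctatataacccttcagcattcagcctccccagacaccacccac
Actg1: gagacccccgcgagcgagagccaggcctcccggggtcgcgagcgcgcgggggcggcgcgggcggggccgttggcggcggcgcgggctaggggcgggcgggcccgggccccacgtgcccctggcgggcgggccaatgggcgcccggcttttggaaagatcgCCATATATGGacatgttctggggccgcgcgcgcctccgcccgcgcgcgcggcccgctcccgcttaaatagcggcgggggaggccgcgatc
Actn1: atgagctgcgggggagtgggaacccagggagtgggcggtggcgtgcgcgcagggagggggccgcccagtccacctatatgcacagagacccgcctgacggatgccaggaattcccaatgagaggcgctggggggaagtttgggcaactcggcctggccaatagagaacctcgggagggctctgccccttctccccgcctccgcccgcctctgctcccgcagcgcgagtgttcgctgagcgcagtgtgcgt
The values of Acta2 and Actg1 overlapped between PRATA and sham, and those of Actn1 did not. Among the other genes with a window and no match, Tpm1 did not overlap, and Tpm2, Cnn1 and Myh9 did. A link between boxes and values was not tested.

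Actn1 (ENSRNOG00000056756), encoding the non-muscle alpha-actinin 1 that cross-links actin filaments and ties them to focal adhesions, had the largest difference of the 10 genes. It measured 156, 151 and 173 CPM in PRATA replicates 1, 2 and 3 and 517, 229 and 660 CPM in sham replicates 1, 2 and 3. The PRATA samples lay close together while the sham samples spread widely, with sham replicate 2 nearest to the PRATA level. The means were 160 ± 11.6 and 469 ± 220 CPM (SD, n = 3), 2.93-fold higher after sham in the fit. The log2 fold change was -1.55 (SE 0.36, 95% CI -2.38 to -0.72) with an unadjusted p of 0.00247 and an adjusted p of 0.156 by edgeR, which placed Actn1 at rank 224 of the 14919 genes by p. Its adjusted p ran from 0.00116 to 0.550 over 16 alternative settings, and was under 0.05 with DESeq2 (0.00116), with voom (0.0315) and without sham replicate 2 (0.0260, log2 fold change -1.88).

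Tpm1 (ENSRNOG00000018184) encodes a tropomyosin that both muscle and non-muscle filaments carry, in different splice forms that gene counts do not separate. Its level was 224, 180 and 185 CPM after PRATA and 107, 165 and 127 CPM after sham, so every PRATA sample was above every sham sample, although PRATA replicate 2 exceeded sham replicate 2 by only a small margin. The log2 fold change was 0.56 (SE 0.21, 95% CI 0.08 to 1.04, unadjusted p = 0.0267, adjusted p = 0.227 by edgeR), from 133 ± 29.3 to 196 ± 24.4 CPM (SD, n = 3). The unadjusted p was 0.114, 0.0879 and 0.0733 without PRATA replicate 1, sham replicate 1 and sham replicate 3, and 0.109 in the 4 libraries left when those apart by 7SL RNA were removed. Only voom gave an adjusted p under 0.05 (0.0498).

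Tpm2 (ENSRNOG00000016731), the tropomyosin gene more typical of smooth and slow skeletal muscle, measured 15.9, 23.9 and 8.46 CPM after PRATA and 18.0, 10.9 and 16.0 CPM after sham. PRATA replicates 2 and 3 were the highest and lowest of all 6 samples. The log2 fold change of 0.10 (SE 0.37, 95% CI -0.76 to 0.95, adjusted p = 0.915 by edgeR) lay within this spread, and it was -0.31 without PRATA replicate 2 and 0.55 in the 4 libraries of the larger 7SL group.

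**Figure D2:**
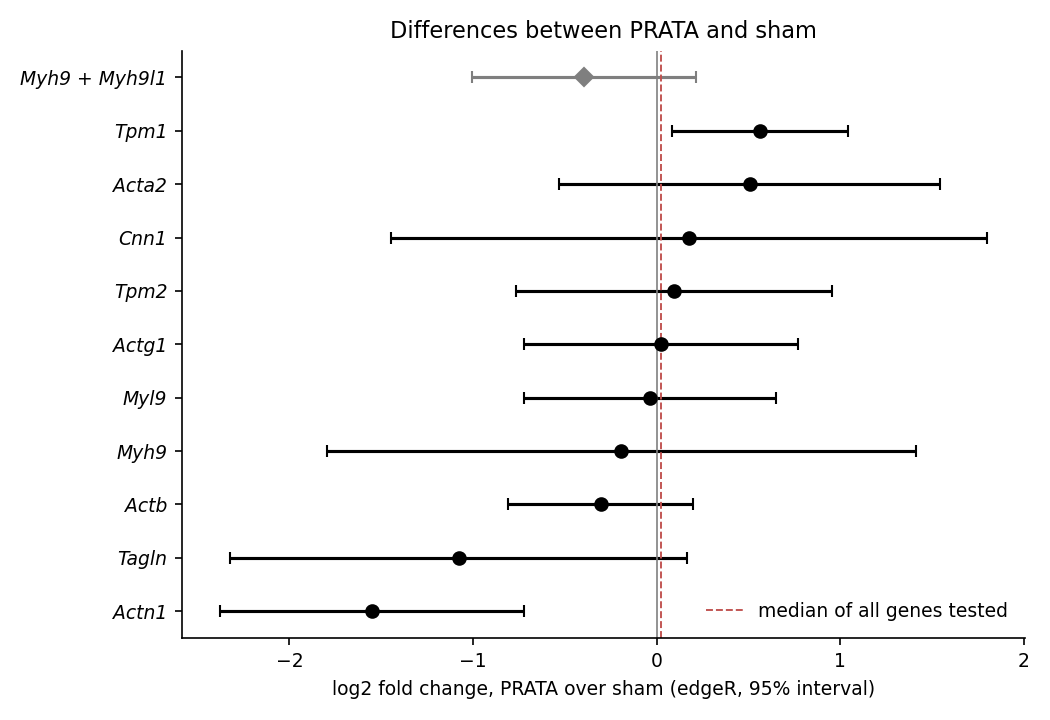
Log2 fold change of the 10 genes, PRATA over sham, with bars for the 95% confidence interval of the edgeR fit (3 samples per group), a solid line at 0, a dashed line at the median of all genes tested (0.02) and a grey diamond for the sum of Myh9 and Myh9l1. The intervals of Actn1 (-2.38 to -0.72) and Tpm1 (0.08 to 1.04) lie off 0, and those of the other 8 genes and of the sum include it.

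Of the 5 smooth muscle and myofibroblast genes, 3 had fitted fold changes above 0 (Acta2, Cnn1 and Tpm2) and 2 below 0 (Tagln and Myl9), and 0 passed an unadjusted p of 0.05. Acta2 (ENSRNOG00000058039), encoding the alpha-actin of vascular smooth muscle and myofibroblasts, was at a low level, with 73, 140 and 97 counts after PRATA and 160, 37 and 30 counts after sham. Those counts correspond to 9.42, 11.2 and 7.67 CPM and to 11.1, 5.78 and 2.83 CPM. Sham replicate 1 matched the PRATA samples and the other 2 sham samples lay below them. The log2 fold change was 0.51 (SE 0.45, 95% CI -0.53 to 1.54, adjusted p = 0.575 by edgeR). It was 1.14 without sham replicate 1 (unadjusted p = 0.0212, adjusted p = 0.261), 0.15 without sham replicate 3, and 1.29 in the 4 libraries of the larger 7SL group (unadjusted p = 0.0137, adjusted p = 0.262).

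Tagln (ENSRNOG00000017628), encoding transgelin, an actin-binding protein of smooth muscle and of stimulated fibroblasts, measured 13.0, 22.3 and 17.1 CPM after PRATA and 44.6, 9.52 and 56.3 CPM after sham. Sham replicates 1 and 3 were above all PRATA samples, whereas sham replicate 2 was below all of them. The log2 fold change of -1.08 (SE 0.54, 95% CI -2.32 to 0.17) had an unadjusted p of 0.0812 and an adjusted p of 0.326 by edgeR. Without sham replicate 2 the log2 fold change was -1.52 with an adjusted p of 0.0340, and without sham replicate 3 it was -0.64 with an adjusted p of 0.728. With all samples kept, the unadjusted p was 0.0313 by DESeq2, 0.0210 by voom and 0.0374 by edgeR with no filter. The adjusted p was 0.182, 0.102 and 0.341 in these fits. Tagln therefore had the same order of sham samples as Actn1 (3 over 1 over 2), and the opposite sign of fold change to Acta2, whose highest sham sample was replicate 1 and lowest replicate 3.

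Myl9 (ENSRNOG00000020246), encoding a regulatory light chain of smooth muscle and non-muscle myosin II, was the steadiest of the low genes, at 4.65, 5.02 and 5.46 CPM after PRATA and 6.63, 3.75 and 5.01 CPM after sham. The sham samples enclosed the PRATA samples, and the log2 fold change was -0.04 (SE 0.30, 95% CI -0.72 to 0.65, adjusted p = 0.961 by edgeR). Cnn1 (ENSRNOG00000027736), encoding calponin 1, a late smooth muscle differentiation gene, stood close to the limit of detection. Its 6 libraries held 11, 12 and 5 counts after PRATA and 15, 7 and 3 after sham, the last being at the floor of 3 counts. Its log2 fold change was 0.17 with a wide interval (SE 0.71, 95% CI -1.45 to 1.80, adjusted p = 0.919 by edgeR).

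Marker lists of the cells that are known for these genes overlapped between the groups in their summed levels. Mcam alone held most of the pericyte and vascular smooth muscle sum, at 491 to 546 CPM after PRATA and 380 to 717 CPM after sham. In the fibroblast list Thy1 held 522 to 888 CPM after PRATA and 468 to 722 CPM after sham. The 10 pericyte and vascular smooth muscle markers summed to 687 to 827 CPM after PRATA and 529 to 1019 CPM after sham, with 0 of 9 tested at an unadjusted p under 0.05, 5 fold changes above 0 and 4 below, and none was at 0 in all 6 samples. Within this list the most positive log2 fold changes were those of Des (0.86) and Myh11 (0.83), and the most negative those of Cspg4 (-0.44) and Pdgfrb (-0.23). Myh11, the smooth muscle myosin heavy chain, measured 84.2, 79.3 and 75.8 CPM after PRATA and 79.0, 35.1 and 19.5 CPM after sham, and Des, encoding desmin, measured 8.65, 12.7 and 6.64 against 9.05, 4.21 and 1.98 CPM. Both had the sham order of Acta2, with sham replicate 1 near the PRATA samples and sham replicate 3 lowest. The 9 fibroblast markers found summed to 1149 to 3425 CPM after PRATA and 2049 to 2994 CPM after sham, 7 with a fold change below 0. Of the 9, 1 was lower at an unadjusted p under 0.05, against 10.1% of all tested genes. That gene was Postn, encoding the matrix protein periostin, at 1.42, 1.51 and 2.85 CPM after PRATA and 5.87, 4.68 and 9.45 CPM after sham, so the groups did not overlap (log2 fold change -1.78, adjusted p = 0.156 by edgeR). Endothelial markers summed to 63.3 to 119 CPM and 27.8 to 170 CPM. Skeletal muscle markers summed to 6.77 to 8.86 CPM and 4.49 to 14.8 CPM, with only 2 genes high enough to test.

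Glial and macrophage markers were detected as well in these neuron-enriched samples. The 8 Schwann cell markers summed to 1059 to 1942 CPM after PRATA and 1159 to 1506 CPM after sham, with 5 fold changes above 0 and 3 below. At an unadjusted p under 0.05, Prx, encoding the myelin protein periaxin, was higher (log2 fold change 1.39, adjusted p = 0.182 by edgeR) and Sox10, a transcription factor of Schwann and satellite glial cells, was lower (-1.63, adjusted p = 0.156 by edgeR). Over all tested genes, 8.19% were higher and 10.1% lower at that level. Sox10 measured 59.9, 88.4 and 42.0 CPM after PRATA and 214, 109 and 267 CPM after sham. Like Actn1, Sox10 and Postn were lower after PRATA without overlap between the groups, as were 11.2% of all tested genes. Their sham samples also had the order of Actn1, 3, 1 and 2 from the highest, a likeness picked after the values were seen. Satellite glial markers summed to 273 to 563 CPM after PRATA and 295 to 664 CPM after sham, with 5 of 5 fold changes below 0 and 0 at an unadjusted p under 0.05. The 8 macrophage markers summed to 24.3 to 99.6 CPM and 35.5 to 80.5 CPM, with 7 fold changes above 0 and 0 at an unadjusted p under 0.05. The part of all these cells in the values of Actn1, Tagln and Acta2 was not tested.

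The cytoplasmic actins were measured with 8571 counts or more in every sample, and neither separated the groups. Actb (ENSRNOG00000034254), encoding beta-actin, held 1608, 1803 and 1757 CPM after PRATA and 2226, 1759 and 2398 CPM after sham. Sham replicates 1 and 3 were above all PRATA samples, and sham replicate 2 lay among them. The means were 1723 ± 102 and 2127 ± 330 CPM (SD, n = 3) and the log2 fold change was -0.30 (SE 0.22, 95% CI -0.81 to 0.20, adjusted p = 0.479 by edgeR). Actg1 (ENSRNOG00000036701), encoding gamma-actin, held 1194, 1321 and 860 CPM after PRATA and 648, 1338 and 1335 CPM after sham. Its lowest samples were PRATA replicate 3 and sham replicate 1, the libraries apart by 7SL RNA, and the log2 fold change was 0.02 (SE 0.32, 95% CI -0.72 to 0.77, adjusted p = 0.978 by edgeR). Of all reads on Acta2, Actb and Actg1, Actb took 57.2%, 57.5% and 66.9% after PRATA and 77.2%, 56.7% and 64.2% after sham. The coding regions of these actin genes are alike and processed pseudogenes of them are known. The division of reads among them may therefore depend on how the counting treated reads with several matches. That treatment is not given in the sources used here, and its effect was not tested.

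Because the study's qPCR of CGRP was normalised to actin, Actb was set beside 14 other genes often used as references. That qPCR was run on dissected L1-L2 ganglia and the RNA here came from isolated neurons. The values below therefore describe these samples and do not test the reference in the qPCR. Over the 6 samples its SD of log2 CPM was 0.23, rank 8 of 15 from the steadiest, where Ppia had 0.17 and Tbp 0.42. By size of fold change Actb ranked 9 of 15. Tbp, encoding the TATA-binding protein, was the only gene of the 15 at an unadjusted p under 0.05, at 8.43 ± 1.22 CPM after PRATA and 14.5 ± 1.45 CPM after sham (SD, n = 3; log2 fold change -0.78, adjusted p = 0.169 by edgeR). Gapdh had no row of that name in the table.

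Calca, which encodes CGRP, was read against these references in each sample. The ratio of Calca to Actb was 0.364, 0.292 and 0.398 after PRATA and 0.130, 0.253 and 0.113 after sham, so the groups did not overlap, with sham replicate 2 the nearest to PRATA. On the log2 scale the difference was 1.17 (-1.52 ± 0.23 against -2.69 ± 0.62, SD, n = 3), and a two-sided exact permutation test gave p = 0.10, the smallest value that 3 against 3 samples allow. Against the geometric mean of the other 14 references the difference was 0.91 (exact permutation p = 0.10), and Actb itself differed from that mean by -0.26 (exact permutation p = 0.20). Calca alone had a log2 fold change of 0.85 (adjusted p = 0.175 by edgeR).

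**Figure D3:**
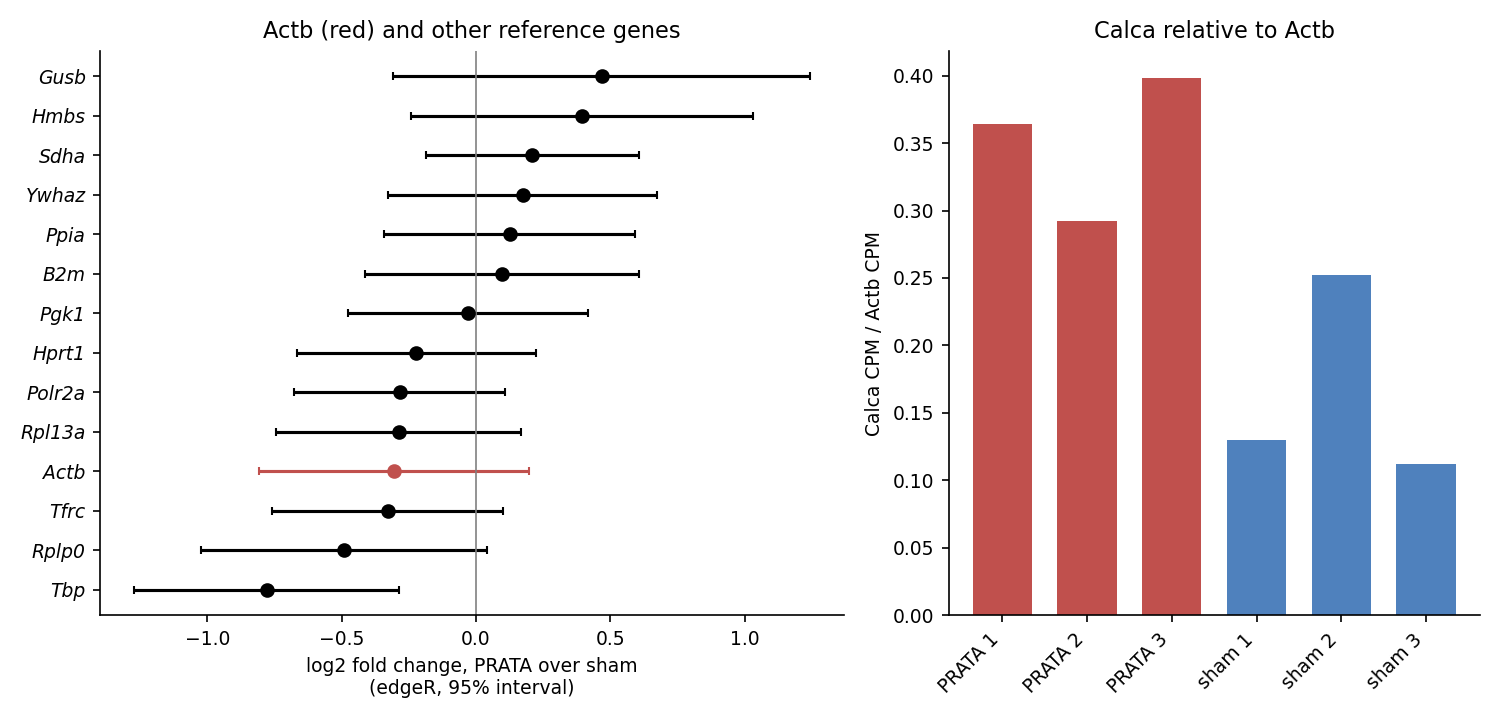
Log2 fold change (PRATA over sham) of Actb and 13 of the 14 other reference genes with 95% confidence intervals, and, as bars from 0, the ratio of Calca to Actb CPM in each sample. Actb at -0.30 lies inside the range of the references, from Tbp at -0.78 to Gusb at 0.47, and the PRATA ratios (0.292 to 0.398) lie above the sham ratios (0.113 to 0.253).

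Myh9 (ENSRNOG00000004860), encoding the heavy chain of non-muscle myosin IIA, had the widest spread of the 10 genes, 158, 129 and 16.5 CPM after PRATA and 72.3, 89.1 and 184 CPM after sham, an 11.1-fold range over the 6 samples. The table holds a second row, Myh9l1 (ENSRNOG00000049236), a name that RefSeq lists as a synonym of Myh9, and most reads of the pair lay there: 5912, 10971 and 11628 counts after PRATA and 18357, 4816 and 14807 after sham, against 209 to 1948 counts for Myh9. The Myh9 row took 17.1%, 12.9% and 1.77% of the reads of both rows after PRATA and 5.40%, 10.6% and 11.6% after sham. The lowest shares were those of PRATA replicate 3 and sham replicate 1, the libraries that also stood apart by 7SL RNA copy, and what sets the share was not tested.

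Summed over both rows, a choice made after the values were seen, the gene measured 921, 1003 and 936 CPM after PRATA and 1341, 841 and 1583 CPM after sham. The range over samples was narrow after PRATA (953 ± 43.8 CPM) and wide after sham (1255 ± 378 CPM, SD, n = 3), with sham replicate 2 below all PRATA samples. The log2 fold change was -0.19 (SE 0.70, 95% CI -1.80 to 1.41, adjusted p = 0.909) for the Myh9 row and -0.40 (SE 0.27, 95% CI -1.01 to 0.21, adjusted p = 0.450) for the sum, both by edgeR. Values of the Myh9 row alone should be read as uncertain.

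**Figure D4:**
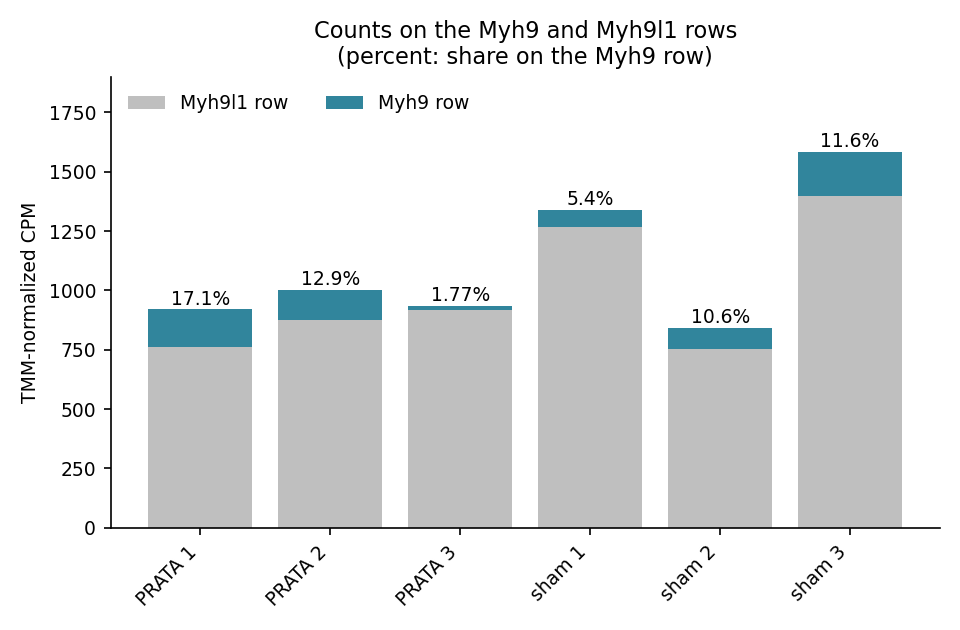
CPM on the Myh9 and Myh9l1 rows in each sample as stacked bars from 0, with the percent of the pair's reads on Myh9. The sum runs from 841 to 1583 CPM while the Myh9 share runs from 1.77% to 17.1%.

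Partner genes of the same pathways were counted from fixed lists, and none of their genes passed an adjusted p of 0.05 by edgeR. At an unadjusted p under 0.05, 1 of 10 tested smooth muscle contractile partners was higher and 1 lower, and their median log2 fold change was 0.28. Among other actins, myosins, tropomyosins and actinins, 2 of 13 were higher and 3 lower (median -0.09). Of the SRF, MRTF and focal adhesion genes, 0 of 14 were higher and 2 lower (median -0.12). In the Arp2/3 and actin turnover list, which holds the genes that nucleate, cap and sever filaments, 0 of 20 passed in either direction (median -0.06). RhoA pathway and myosin phosphatase genes, which set the phosphorylation of the myosin light chain, had 1 of 13 higher and 4 lower (median -0.27), against backgrounds of 8.19% and 10.1%.

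Genes of these lists whose groups did not overlap went in both directions. Mylk, encoding the kinase that phosphorylates the myosin light chain, was at 41.3 ± 2.82 CPM after PRATA and 26.6 ± 5.81 CPM after sham (log2 fold change 0.63, adjusted p = 0.190). The non-muscle myosin heavy chains Myh14 and Myh10 were at 179 ± 17.3 and 251 ± 46.2 CPM after PRATA and at 124 ± 10.9 and 181 ± 15.8 CPM after sham, with log2 fold changes of 0.53 and 0.47 (adjusted p = 0.187 and 0.261). In the other direction, Myl12a, a non-muscle regulatory light chain gene, measured 50.6 ± 10.5 against 121 ± 46.3 CPM (log2 fold change -1.26, adjusted p = 0.156), and Pxn, encoding the focal adhesion protein paxillin, 65.3 ± 9.59 against 133 ± 40.9 CPM (-1.03, adjusted p = 0.158). Diaph1, a formin, and Ppp1cb, the catalytic subunit of myosin phosphatase, had log2 fold changes of -0.51 and -0.42 (adjusted p = 0.221 and 0.234). All these adjusted p-values are from edgeR, all SDs are over 3 samples, and the genes were the up to 3 per list with the smallest p.

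Several further genes had the sham order of Actn1, and they were picked after their values were seen, so they carry no test of a shared pattern. Cald1, encoding caldesmon, measured 342, 552 and 318 CPM after PRATA and 1110, 329 and 1562 CPM after sham. Flna, encoding filamin A, measured 233, 360 and 335 CPM and 836, 342 and 1014 CPM. Tpm4 and Cnn3, a tropomyosin and a calponin of non-muscle cells, held 252, 339 and 268 and 268, 382 and 262 CPM after PRATA, and 700, 231 and 757 and 691, 283 and 721 CPM after sham. In each of the 4 genes sham replicates 1 and 3 were high and sham replicate 2 lay near or below the PRATA samples, so the groups overlapped.

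**Figure D5:**
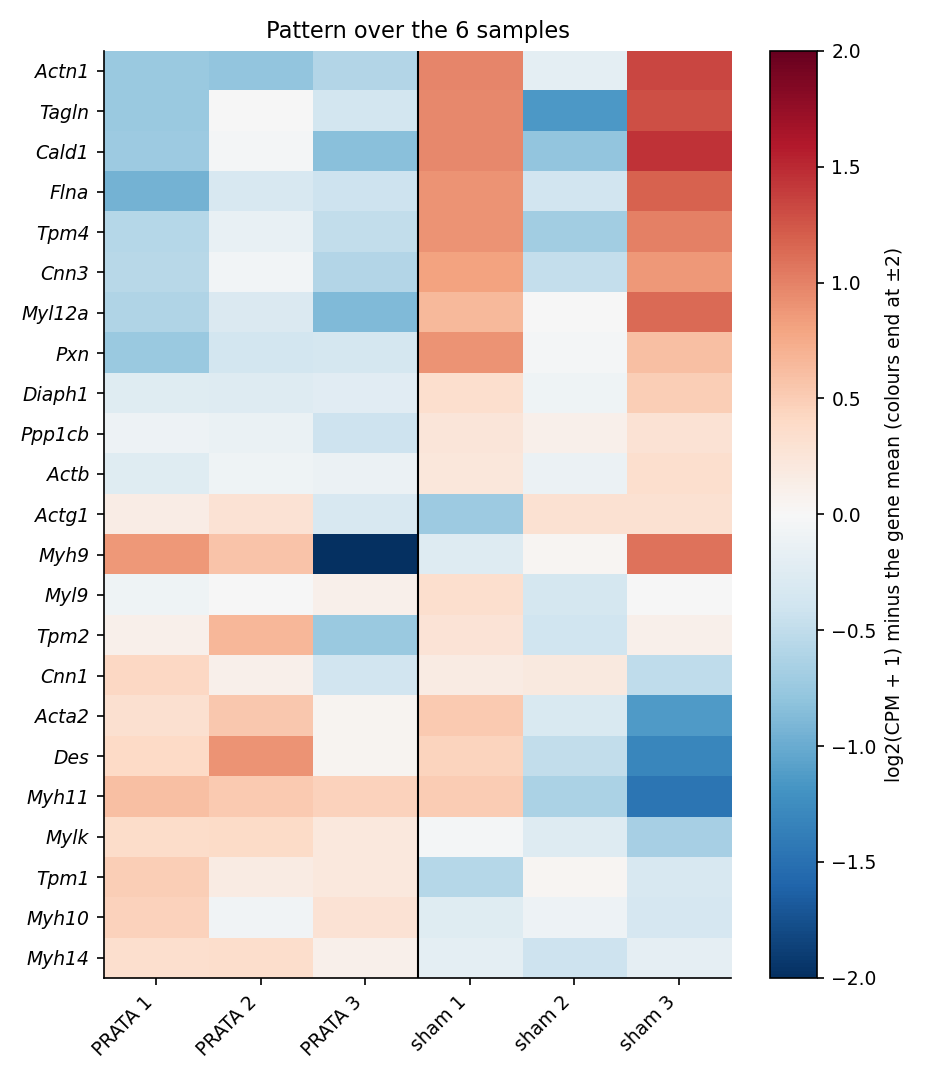
Log2(CPM + 1) of the 10 genes and the partner genes named in the text in each sample, minus each gene's mean over the 6 samples, with colours that end at 2 log2 units on either side. Actn1 and Tagln are high in sham replicates 1 and 3, Acta2 is low in sham replicate 3, and Myh9 is low in PRATA replicate 3.

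Likeness between genes was taken as the root mean square difference of centred log2(CPM + 1) over the 6 samples, a description with no test. Among the 10 genes, Tagln and Actn1 were nearest to each other at 0.52 log2 units, Actb and Myl9 at 0.21, and Actg1 and Tpm1 at 0.39. Myh9 lay farthest from its nearest, Tpm2, at 0.87. Among 11297 genes with a mean of at least 5 CPM, those nearest to Acta2 were Rin2, Nr1d1, Des, Pcdh17 and Adcy1, at 0.14 to 0.20 log2 units, and those nearest to Actb were Tmem33, Rab28, Phf20l1, Agps and Ptbp3, at 0.04 to 0.05. For Actn1, a gene added to this search after its values were seen, the nearest were Tnc, Cthrc1, Runx2, LOC108348069 and Nav2, at 0.12 to 0.15. Tnc and Cthrc1 encode secreted matrix proteins and Runx2 a transcription factor of bone.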

How the data were processed

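RNA of isolated L1-L2 DRG neurons was sequenced in 3 PRATA and 3 sham samples. Values are raw counts of reads per gene, made and deposited by the authors without normalization. The submitters' processing notes name STAR 2.7.3a, RSEM and DESeq2, whereas the paper's methods name HISAT2 2.0.4, StringTie 1.3.1 and Cuffdiff 2.1.1. The genome build, the annotation and the treatment of reads with several matches are not given in the sources used here. All columns of sample values were used. No 2 libraries of the same group agreed within sampling noise (lowest chi-square per degree of freedom 25.3).

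Counts were analysed with edgeR 4.0.16 in R 4.3.3. Genes were kept by filterByExpr (minimum count 10, minimum total 15), scaled by TMM and compared by the quasi-likelihood test, two-sided, without covariates, with Benjamini-Hochberg adjustment over 14919 genes. CPM values are TMM-scaled, and a floor of 3 counts allows for counting error alone, as PCR copies of 1 molecule were not told apart. Ratios were compared by exact permutation. Transcript lengths were not used, so shares of reads among genes, and genes called low, rest on counts not scaled for length.

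The 10 genes, the partner and marker lists and the naming rule were chosen with earlier results of these data known. The rule named the 10 genes, Calca and the references, up to 3 genes per partner list with the smallest p among those at an unadjusted p under 0.05 whose groups did not overlap, and the 5 genes nearest to Acta2 and to Actb. Of 15 other references, 14 matched by name. A reference gene, which still enters the ranks and the mean, and a partner gene picked by the rule are not reported here.

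Alternatives were DESeq2 1.42.0 and its size factors, limma 3.58.1 (trend with a pseudocount of 1, and voom with sample quality weights), library size alone, no filter, at least 10 counts in every sample, the replicate number as a block, a covariate for 7SL RNA copy group, the 4 samples of the larger group, and each sample left out. The sum of Myh9 and Myh9l1 was chosen after seeing the data. The edgeR fit with its main settings, DESeq2, limma-trend and voom were also run on simulated counts, and the other alternatives were not. Promoters were RefSeq GRCr8 windows. Plots used matplotlib 3.10.9 in Python 3.11.15.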

Additional observations from a re-analysis of the deposited data

How the results depend on the processing

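Actn1, Actb, Acta2, Tpm1 and Tagln kept the sign of their fold change under all 16 alternatives, and so did the Myh9 and Myh9l1 sum under the 13 run for it (-0.61 to -0.19). The number of genes at an adjusted p under 0.05 was 0 as reported, 728 with DESeq2, 1173 with voom, 13 in the 4 samples of the larger 7SL RNA copy group, and 0 to 721 with 1 sample left out, 721 of them without sham replicate 2. The number of the 10 genes at an unadjusted p under 0.05 was 1 with library size alone and 1 with the replicate block. It was 4 with voom (Actb, Actn1, Tagln and Tpm1) and 1 to 3 with 1 sample left out. DESeq2 and the fit with no filter each gave 3 (Actn1, Tagln and Tpm1). The median log2 fold change of the 10 genes was -0.21 to 0.25 with 1 sample left out, the last without PRATA replicate 3.

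Genes with fold changes near 0 changed sign. Actg1 was at -0.026 with library size alone and -0.095 in the 4 samples, Tpm2 at -0.087 with voom and -0.00070 with the replicate block, Myl9 at 0.010 with limma-trend, 0.0049 with the replicate block and 0.12 in the 4 samples, and Myh9 at 0.050 in the 4 samples. With 1 sample left out, log2 fold changes ran from -0.27 to 0.19 for Actg1, -0.24 to 0.56 for Cnn1, -0.31 to 0.41 for Tpm2, -0.20 to 0.17 for Myl9 and -0.67 to 0.33 for Myh9. The cause was not tested. Cnn1 has no value with at least 10 counts in every sample. The log2 difference of Calca to Actb was 0.91 to 1.53 over 9 alternatives.

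Both groups carry replicate numbers 1 to 3, but same-numbered samples did not deviate together (r = -0.35, -0.04 and -0.35). Deviations from a mean of 3 samples are tied to one another, so these values cannot decide whether the numbers pair the samples. With the replicate block Actn1 was at -1.43 (adjusted p = 0.461) and Tpm1 at 0.58 (unadjusted p = 0.0703), and 1528 genes were at an unadjusted p under 0.05 against 2734. Of the 10 genes, Cnn1 had the fewest counts.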
